A study of Caenorhabditis elegans with 14 samples.

Results

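The C-type lectin genes of *C. elegans*, named *clec-*, were followed in worms that were treated with RNAi toward *anc-1*. Members were chosen by name alone, as the genes whose symbol began with *clec-* in either of the 2 tables of normalized read counts. This gave 68 genes among the 12483 genes listed in either table. Of these, 63 were listed in the wild type, 63 in the polyQ35-YFP strain and 58 in both. The RefSeq annotation holds 239 protein-coding *clec-* genes and 25 *clec-* pseudogenes, and those outside the 68 were not analysed here. Members lay on every chromosome, with 22 on IV, 20 on V, 10 on II, 8 on I, 5 on III and 3 on X.

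C-type lectins share a compact fold that was first described in animal lectins binding sugars in the presence of calcium. The family is large in nematodes, and many of its worm members are secreted or membrane-bound proteins. Several change their level when worms feed on pathogenic bacteria, which has made them common readouts of innate immunity, although the ligands of most members are unknown. In the deposited annotation all 68 members carried the term carbohydrate binding, 18 carried innate immune response, 5 defense response to Gram-positive bacterium, 7 transmembrane signaling receptor activity and 4 extracellular region.

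RNA came from whole hermaphrodites on day 6 of adulthood, grown at 20 °C on *E. coli* HT115 that carried either the empty RNAi vector (EV) or a construct that knocks down *anc-1*, from hatching on (the knockdown groups). ANC-1 is a KASH protein of the LINC complex, the bridge across the nuclear envelope, and anchors nuclei to actin. The 4 groups were wild-type worms (strain N2) on EV (n = 3) and on *anc-1* RNAi (n = 3), and polyQ35-YFP worms (strain AM140) on EV (n = 4) and on *anc-1* RNAi (n = 4). AM140 worms express 35 glutamines fused to YFP from the *unc-54* promoter, which is active in body-wall muscle and not in the intestine. All worms were fed one bacterial strain on plates with ampicillin and IPTG, so no group was free of bacteria, and no pathogen was given. The comparison asks how the loss of *anc-1* changes transcript levels in each strain. The worms were not dissected, and a smaller share of a cell type cannot be told apart from less RNA per cell.

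Between 4934531 and 11563506 reads were counted per sample. The target *anc-1* read 291 to 349 under EV and 39.6 to 68.4 under RNAi in wild-type worms, and 295 to 409 against 24.8 to 50.8 in polyQ35-YFP worms. In a principal component analysis of the polyQ35-YFP samples, both samples of repeat 4 had the highest scores on the component holding 24.9% of the variance (34.5 under EV and 37.1 after knockdown, against -47.1 to 11.2 in the other samples), so results of that strain are also given without them where they differ. The intestinal markers *ges-1*, *vha-6*, *act-5*, *ifb-2*, *pept-1*, *asp-1*, *cpr-6*, *elt-2*, *elt-7* and *mtl-2* were all listed in both strains.

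The values are reads at transcript ends, so that a transcript yields about the same number of reads whatever its length, and levels were compared between genes without dividing by length. The family was dominated by a few members. *clec-87* (chromosome I, 10184244 to 10185468) alone took 52.1% to 69.8% of the summed normalized count of all members in a sample, and it ranked between the second and the seventh most abundant gene of all genes listed. Together with *clec-1*, *clec-88* and *clec-266* it made up 84.7% to 91.6% of the sum. The whole family amounted to 0.985% to 1.39% of the normalized counts of a sample. At the other end, the mean over all samples was under 10 for 22 of the 63 members in wild-type worms and for 25 of the 63 in polyQ35-YFP worms. The median standard error of the log2 fold change was 0.69 for these low members of wild-type worms against 0.23 for the other members, and 0.51 against 0.26 in polyQ35-YFP worms. No member with a mean under 10 was called in either strain.

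Knockdown and EV samples of a strain were compared gene by gene with limma, on log2(normalized count + 1), and a gene was called when its Benjamini-Hochberg adjusted p over all genes of the table was below 0.05. Log2 fold changes are given with their standard error as *anc-1* RNAi over EV. In wild-type worms 11 of 63 members rose (17.5%), where 7.5% of all genes rose, and 4 of 63 fell (6.35%), where 6.13% of all genes fell. The knockdown samples all lay above the EV samples for 14 members (22.2%), against 15.8% of all genes, and all lay below them for 6 members (9.52%), against 15.8% of all genes. The median log2 fold change was 0.15 over the members and 0.00 over all genes tested, and it was positive for 36 of the 63 members and for 50.4% of all genes. In polyQ35-YFP worms 3 of 63 members rose (4.76%) where 0.772% of all genes rose, and none fell where 1.47% of all genes fell. The count of falling members was also 0 with edgeR, where 169 of the 12173 genes fell, and 1 with DESeq2, where 398 fell. At an unadjusted limma p below 0.05, 6 members were lower and 10 were higher. The share of all genes at that threshold was not counted. Groups of this strain did not overlap for 4 rising members (6.35%), against 3.39% of all genes, and for 2 falling ones (3.17%), against 5.94%. The medians were 0.09 over the members and 0.03 over all genes. Fitted without the variance trend, limma called 4 members higher in wild-type worms, *clec-5*, *clec-78*, *clec-145* and *clec-190*, and none in polyQ35-YFP worms.

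**Figure D1:**
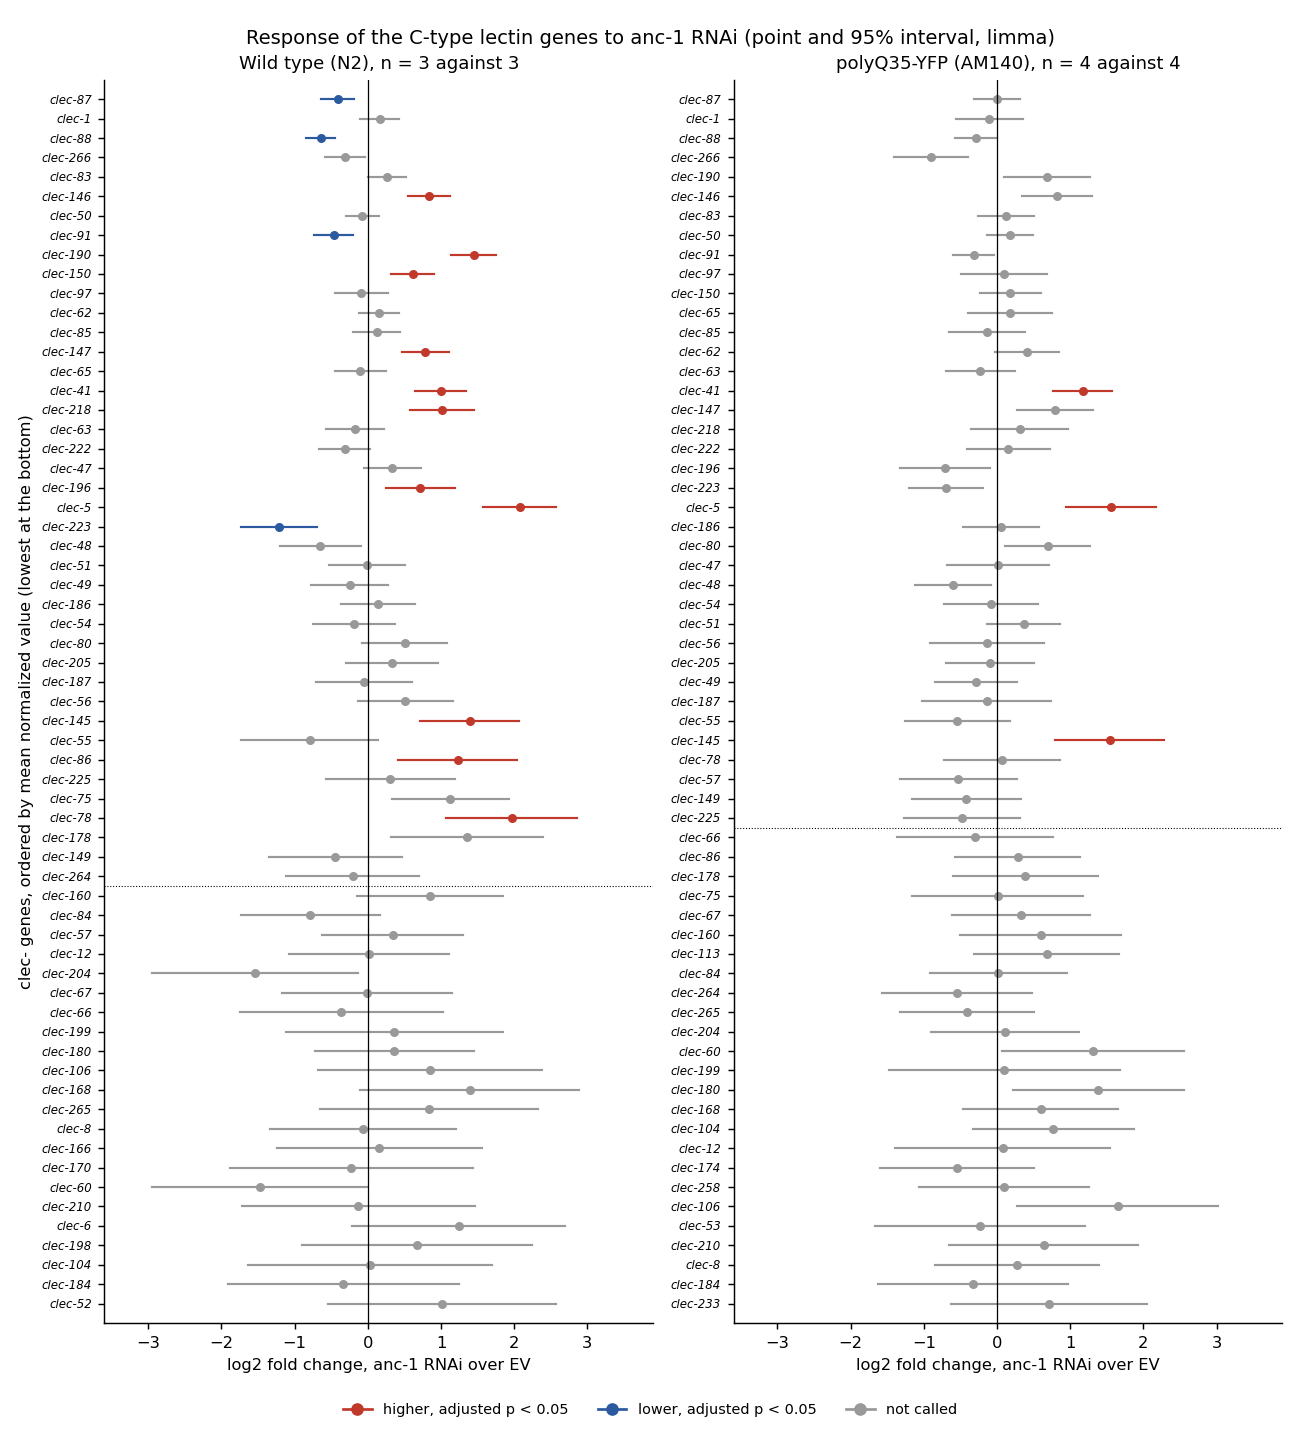
Log2 fold change (*anc-1* RNAi over EV) with its 95% interval from limma for the 63 C-type lectin genes of each strain, ordered from the highest mean normalized count at the top to the lowest. The dotted line marks a mean of 10, below which intervals are wide and no gene was called; red and blue points are the 11 rising and 4 falling genes in wild-type worms and the 3 rising genes in polyQ35-YFP worms.

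The 3 members that rose in both strains were *clec-5*, *clec-41* and *clec-145*. *clec-5* (chromosome III, 4881914 to 4883578, minus strand, 4 exons) read 25.2, 20.0 and 29.9 in wild-type EV replicates 1 to 3 and 134, 92.3 and 99.5 after knockdown. In polyQ35-YFP worms it read 41.7, 26.96, 16.6 and 41.9 in EV replicates 1 to 4 and 96.8, 86.3, 100.0 and 77.1 after knockdown. The groups were apart in both strains, and the treated values fell in a narrower band relative to their mean than the EV values of polyQ35-YFP worms did. The mean rose 4.34-fold in wild-type worms (log2 fold change 2.07 ± 0.24, limma adjusted p = 1.8e-05) and 2.83-fold in polyQ35-YFP worms (1.56 ± 0.28, adjusted p = 0.015). The polyQ35-YFP call was lost without knockdown replicate 1 (adjusted p = 0.057) or replicate 3 (0.054), with log2 fold changes of 1.52 and 1.50.

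*clec-41* (chromosome V, 13134965 to 13138086, minus strand, 3 exons) carries the innate immune response term and belongs to the members with a reported link to infection. Its counts were 142, 143 and 211 under EV and 359, 283 and 336 after knockdown in wild-type worms. The polyQ35-YFP counts were 239, 197, 142 and 177 under EV and 419, 459, 487 and 327 after knockdown. Every treated sample was above every EV sample of its strain, and in polyQ35-YFP worms repeat 4 held the lowest treated value. Its response was 0.99 ± 0.17 on the log2 scale with limma in wild-type worms (adjusted p = 5.2e-04) and 1.17 ± 0.19 in polyQ35-YFP worms (0.0071). Both calls held with each sample left out in turn, with adjusted p-values up to 0.0053 and 0.038.

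*clec-145* (chromosome II, 13589036 to 13590532, minus strand, 4 exons) was much less abundant. It read 11.5, 11.5 and 16.04 under EV and 25.002, 44.4 and 39.6 after knockdown in wild-type worms. In polyQ35-YFP worms the values were 9.27, 6.27, 11.1 and 9.22 under EV and 24.4, 42.0, 34.2 and 16.2 after knockdown. The groups did not overlap in either strain, and the treated values were more scattered than the EV values. The response was 1.39 ± 0.32 on the log2 scale with limma in wild-type worms (adjusted p = 0.0071) and 1.54 ± 0.35 in polyQ35-YFP worms (adjusted p = 0.035). In polyQ35-YFP worms the call was lost in 6 of 8 omissions of a sample, with adjusted p-values of 0.055 (without EV replicate 1), 0.13 (EV replicate 2), 0.058 (EV replicate 3), 0.094 (knockdown replicate 1), 0.13 (knockdown replicate 2) and 0.12 (knockdown replicate 3), and it was also lost with library-total scaling. An opposite-strand gene, *Y48E1B.8*, overlaps *clec-145*, and the strandedness of the counting is not given in the sources used here.

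**Figure D2:**
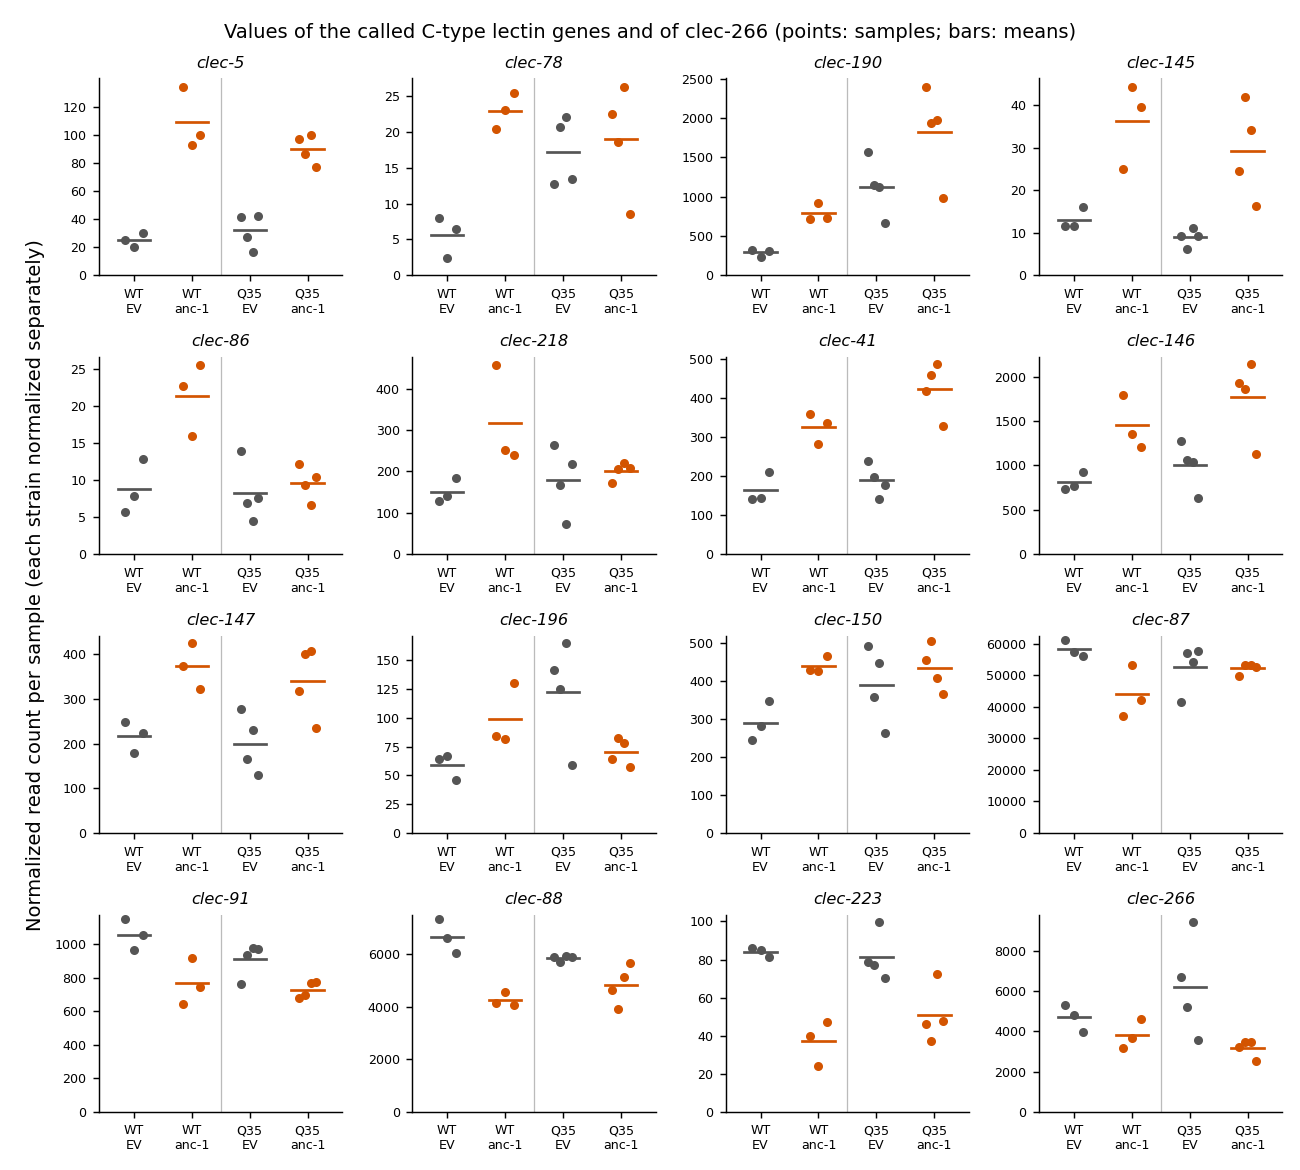
Normalized read count of each sample (points) and group mean (bars) for the 15 members called in wild-type worms and for *clec-266*, with wild-type worms (WT) left of the line and polyQ35-YFP worms (Q35) right of it; each strain was normalized separately, so heights are compared within a strain. *clec-5*, *clec-41* and *clec-145* are the genes whose knockdown points all sit above the EV points in both strains.

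The other 8 members that rose in wild-type worms spanned a wide range of levels. *clec-190* (chromosome IV, 15124933 to 15126121) read 325, 232 and 312 under EV and 710, 922 and 730 after knockdown, a 2.72-fold rise of the mean (log2 fold change 1.45 ± 0.14, limma adjusted p = 7.1e-06). *clec-78* (chromosome IV, 3989102 to 4014221), by far the longest of the rising members with 26 exons, read 8.03, 2.42 and 6.42 under EV and 20.5, 23.1 and 25.5 after knockdown (1.97 ± 0.42, adjusted p = 0.0043). *clec-218*, which like *clec-78* carries the Gram-positive defense term, read 128, 139 and 185 against 457, 251 and 240 (1.01 ± 0.21, adjusted p = 0.0032). The treated samples lay above the EV samples for all 3 genes, and knockdown replicate 1 stood highest for *clec-218*.

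The most abundant of the rising members was *clec-146* (chromosome II, 13590559 to 13593797), with 730, 769 and 925 under EV and 1792, 1355 and 1209 after knockdown (log2 fold change 0.83 ± 0.14, limma adjusted p = 4.2e-04). *clec-147*, also on chromosome II, read 248, 179 and 225 against 374, 426 and 323 (0.79 ± 0.15, adjusted p = 0.0017). *clec-150* on chromosome III read 243, 280 and 348 against 428, 427 and 465 (0.61 ± 0.14, adjusted p = 0.0061). These 3 genes had changes under 2-fold in which the lowest treated value was nonetheless above the highest EV value. The calls of *clec-190*, *clec-78*, *clec-218*, *clec-146*, *clec-147* and *clec-150* held with each wild-type sample left out in turn. *clec-78*, *clec-147*, *clec-86*, *clec-85* and *clec-178* also overlap genes on the opposite strand.

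The calls of the last rising pair were each lost in 4 of 6 omissions of a sample. *clec-86* (chromosome X, 7139901 to 7140564), a member with the innate immune response term, read 5.74, 7.88 and 12.8 under EV and 22.7, 15.98 and 25.5 after knockdown (log2 fold change 1.23 ± 0.39, limma adjusted p = 0.042). Its call was lost on omission of EV replicate 1 (adjusted p = 0.14), EV replicate 2 (0.12), knockdown replicate 1 (0.12) or knockdown replicate 3 (0.14), and with DESeq2 (0.090). *clec-196* (chromosome IV, 17276966 to 17277747) read 64.2, 66.7 and 46.0 against 84.1, 81.7 and 130 (0.72 ± 0.23, adjusted p = 0.043). The *clec-196* call was lost on omission of EV replicate 1 (0.061), EV replicate 2 (0.065), EV replicate 3 (0.16) or knockdown replicate 3 (0.20). The groups did not overlap for either gene.

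The 4 members that fell in wild-type worms included some of the most abundant of the family. *clec-87* read 61174, 57280 and 56117 under EV and 37143, 53117 and 42272 after knockdown (log2 fold change -0.41 ± 0.11, limma adjusted p = 0.017). *clec-88* (chromosome II, 6365740 to 6366948) read 7333, 6618 and 6047 against 4141, 4560 and 4079 (-0.64 ± 0.09, adjusted p = 1.7e-04). *clec-91* (chromosome I, 9126137 to 9127072), annotated to the extracellular region, read 1148, 962 and 1054 against 646, 916 and 744 (-0.47 ± 0.13, adjusted p = 0.019). For *clec-88* all treated samples lay far under the EV samples, whereas for *clec-87* and *clec-91* the treated replicate 2 lay just under the lowest EV sample.

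*clec-223* (chromosome V, 11273148 to 11278159, 11 exons) had the largest decrease of the 4, from 86.04, 84.9 and 81.3 under EV to 39.8, 24.0 and 47.2 after knockdown (log2 fold change -1.22 ± 0.25, limma adjusted p = 0.0028). Its EV samples were close to each other, and the treated samples were spread over a 2-fold range. The calls of *clec-223* and *clec-88* held with each sample left out. The *clec-87* call was lost without EV replicate 1 (adjusted p = 0.061), EV replicate 2 (0.057), knockdown replicate 1 (0.098) or knockdown replicate 3 (0.061). The *clec-91* call was lost without EV replicate 1 (0.083), EV replicate 3 (0.052), knockdown replicate 1 (0.10) or knockdown replicate 3 (0.058), so that 2 members were called lower without EV replicate 1 and 2 without knockdown replicate 1. *clec-88* overlaps *ctsa-4.1* on the same strand, and *clec-87* and *clec-91* overlap opposite-strand genes. What these overlaps do to their counts was not tested.

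The sum of all members in wild-type worms was 85627 to 90670 under EV and 64936 to 81596 after knockdown. Without *clec-87*, *clec-1*, *clec-88* and *clec-266* it was 7226 to 8366 under EV and 9372 to 9967 after knockdown. The treatments did not overlap in either sum, with the first lower and the second higher after knockdown. In polyQ35-YFP worms the sum without these 4 genes was 7152 to 11341 under EV and 8178 to 12153 after knockdown, and these ranges overlapped, although the treated sample was the higher one in 4 of 4 repeats. The sum of all members there was 79526 to 95600 under EV and 78904 to 88448 after knockdown, and the treated sample was the higher one in 1 of 4 repeats.

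For the polyQ35-YFP worms, the design states that each repeat held both conditions, and when limma was given the repeat as a block, 6 members rose (9.52%), where 3.83% of all genes rose, and 3 fell (4.76%), where 4.3% of all genes fell. In wild-type worms the block gave 12 rising members (19.05%; 8.81% of all genes), with *clec-178* added (1.36, adjusted p = 0.035), and 4 falling ones (6.35%; 7.44% of all genes). The 3 rising members added by the block in polyQ35-YFP worms had also risen in wild-type worms. *clec-146* read 1274, 1065, 1036 and 635 in EV replicates 1 to 4 and 1930, 1863, 2142 and 1129 after knockdown. *clec-190* read 1571, 1148, 1125 and 667 under EV and 2396, 1942, 1969 and 982 after knockdown. *clec-147* read 277, 165, 230 and 129 under EV and 319, 401, 408 and 235.13 after knockdown. The groups overlapped and repeat 4 was the lowest of both groups for each of these genes, while the treated sample was above the EV sample in 4 of 4 repeats.

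The within-repeat ratio was 1.51 to 2.07 for *clec-146*, 1.47 to 1.75 for *clec-190* and 1.15 to 2.43 for *clec-147*. Without the block their limma log2 fold changes were 0.82 ± 0.23 (adjusted p = 0.079), 0.68 ± 0.27 (0.24) and 0.79 ± 0.24 (0.12). With the block the adjusted p-values were 4.5e-04, 0.0011 and 0.0080. Leaving out both samples of repeat 4, an alternative chosen after seeing the data, gave adjusted p-values of 0.0014, 0.0081 and 0.026 without the block. *clec-146* was also called by DESeq2 (0.019) and without knockdown replicate 4 alone (0.027).

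The block also added 3 falling members in polyQ35-YFP worms. *clec-266* (chromosome X, 6617441 to 6622892) read 6694, 5191, 9438 and 3552 under EV and 3209, 3463, 3474 and 2512 after knockdown. *clec-223* read 78.8, 77.1, 99.6 and 70.4 under EV and 46.1, 37.3, 72.4 and 47.6 after knockdown. *clec-196* read 141, 125, 165 and 58.7 under EV and 63.9, 82.8, 77.7 and 57.1 after knockdown. The treated sample was lower in 4 of 4 repeats for each gene, and the groups were apart for *clec-266* only, its EV replicate 4 lying just above the highest treated value.

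Their limma log2 fold changes in polyQ35-YFP worms were -0.90 ± 0.24 for *clec-266* (adjusted p = 0.067 without the block and 0.0014 with it), -0.70 ± 0.23 for *clec-223* (0.15 and 0.036) and -0.71 ± 0.28 for *clec-196* (0.24 and 0.044). Without EV replicate 4, *clec-266* (-1.14, adjusted p = 0.0011) and *clec-196* (-1.03, 0.0055) were called, and without both samples of repeat 4 they were called as well (0.0023 and 0.010). DESeq2 without a block also called *clec-266* (adjusted p = 0.0056). In wild-type worms *clec-266* read 5321, 4817 and 3986 against 3157, 3665 and 4614 (-0.31 ± 0.13, adjusted p = 0.12), and its groups overlapped. There it was called without EV replicate 3 (0.050) or knockdown replicate 3 (0.025). It overlaps *kqt-1* on the opposite strand.

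**Figure D3:**
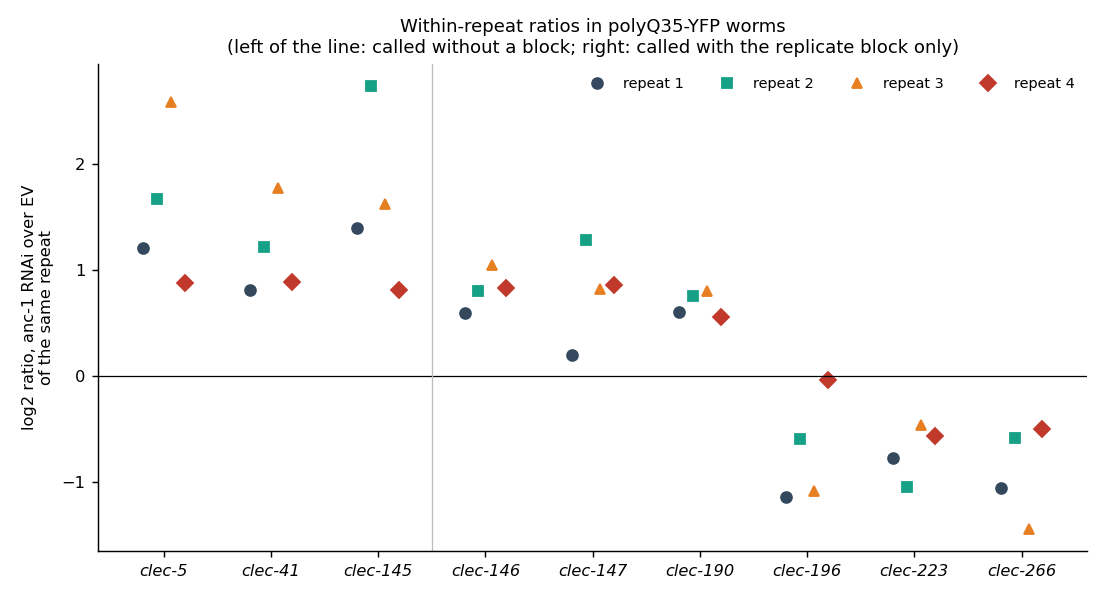
Log2 ratio of the normalized count after knockdown to that under EV within each of the 4 repeats of polyQ35-YFP worms. Shown are the 3 members that limma called on all samples without a block (left of the line) and the 6 it called on all samples only with the replicate block (right). DESeq2 without a block also called *clec-146* and *clec-266*. All 4 ratios have the same sign for each gene, and that of *clec-196* in repeat 4 (a ratio of 0.973) lies next to 0.

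The remaining wild-type calls had these values in polyQ35-YFP worms. *clec-78* read 12.8, 20.7, 22.1 and 13.4 under EV and 22.6, 18.6, 26.3 and 8.57 after knockdown (log2 fold change 0.07 ± 0.37, limma adjusted p = 0.95). *clec-218* read 264, 167, 71.9 and 217 against 173, 206, 220 and 208 (0.31 ± 0.31, 0.70). *clec-150* read 493, 358, 448 and 262 against 456, 505, 408 and 366 (0.18 ± 0.19, 0.73). The groups overlapped widely for these 3 genes.

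Of the falling genes, *clec-87* read 41431, 56883, 54208 and 57733 under EV and 49608, 53183, 53224 and 52476 after knockdown in polyQ35-YFP worms (log2 fold change 0.00 ± 0.15, limma adjusted p = 1.0, 95% interval -0.31 to 0.31). *clec-88* read 5889, 5719, 5929 and 5905 against 4656, 3921, 5141 and 5666 (-0.29 ± 0.13, 0.32). *clec-91* read 764, 934, 974 and 972 against 678, 696, 765 and 771 (-0.32 ± 0.13, 0.25). The treated sample was lower in 4 of 4 repeats for *clec-88* and *clec-91*, and in 3 of 4 for *clec-87*. *clec-86* read 13.9, 6.90, 4.43 and 7.54 under EV and 12.2, 9.32, 6.58 and 10.5 after knockdown, with overlapping groups (0.28 ± 0.40, 0.80).

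Besides *clec-266*, the most abundant members without a call in either strain were *clec-1*, *clec-83* and *clec-50*. *clec-1* (chromosome V, 5700010 to 5701082) read 8798, 9687 and 13092 under EV and 10534, 10882 and 13603 after knockdown in the wild type (0.16 ± 0.13, limma adjusted p = 0.46), with replicate 3 the highest of both groups. In the polyQ35-YFP strain it read 14170, 15775, 17659 and 8416 against 11613, 14706, 14456 and 10071 (-0.10 ± 0.21, adjusted p = 0.87), with repeat 4 the lowest of both groups. *clec-83*, which carries the innate immune response term, had 0.26 ± 0.12 (adjusted p = 0.17) and 0.13 ± 0.18 (0.80), and *clec-50* had -0.08 ± 0.11 (0.70) and 0.18 ± 0.15 (0.64).

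Whether the response differed between strains (polyQ35-YFP minus wild type) was tested for the 11751 shared genes. The adjusted p passed the threshold for 0 of the 58 members and for 0.00851% of all genes. At an unadjusted p below 0.05 stood 3 of the 58 members, *clec-60*, *clec-78* and *clec-196*, and 407 of the 11751 genes. The replicate block, DESeq2 and edgeR gave counts of 0 members as well. The difference was -1.43 ± 0.41 for *clec-196* (95% interval -2.28 to -0.57, limma adjusted p = 1.0, 0.20 with the block), and it passed the threshold without EV replicate 4 of polyQ35-YFP worms (-1.74, adjusted p = 0.035) or without both samples of repeat 4 (-1.65, 0.041). For *clec-78* it was -1.90 ± 0.57 (interval -3.09 to -0.70, adjusted p = 1.0). *clec-60* read at most 10.5 in any sample, and its difference of 2.79 ± 0.89 rested on few reads.

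For 13 of the 15 members called in wild-type worms the 95% interval of the strain difference held 0, and with the replicate block it held 0 for 9 of them, while none of the 15 passed the adjusted threshold in either fit. It ran from -1.35 to 0.31 for *clec-5*, from -0.39 to 0.75 for *clec-41* and from -0.86 to 1.16 for *clec-145*, so these data do not set the strains apart or show them to be alike for these genes. The interval was -1.55 to 0.02 for *clec-190* and -0.00 to 0.83 for *clec-87*, and with the block it was -1.16 to -0.37 (limma adjusted p = 0.25) and 0.05 to 0.77 (adjusted p = 0.77). The other blocked intervals without 0 were those of *clec-78*, *clec-88*, *clec-150* and *clec-196*. The estimates had the same sign in both strains for 13 of the 15 genes, while *clec-87* stood at 0.00 in polyQ35-YFP worms and *clec-196* had opposite signs. Over the 37 members with a mean of at least 10 in both strains, 26 had the same sign. Their log2 fold changes correlated across genes with Pearson's r of 0.71 and Spearman's rho of 0.67. This is a description, since genes are not independent replicates. The sign counts and correlations were not computed over all genes, so they cannot be read as a trait of the family.

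**Figure D4:**
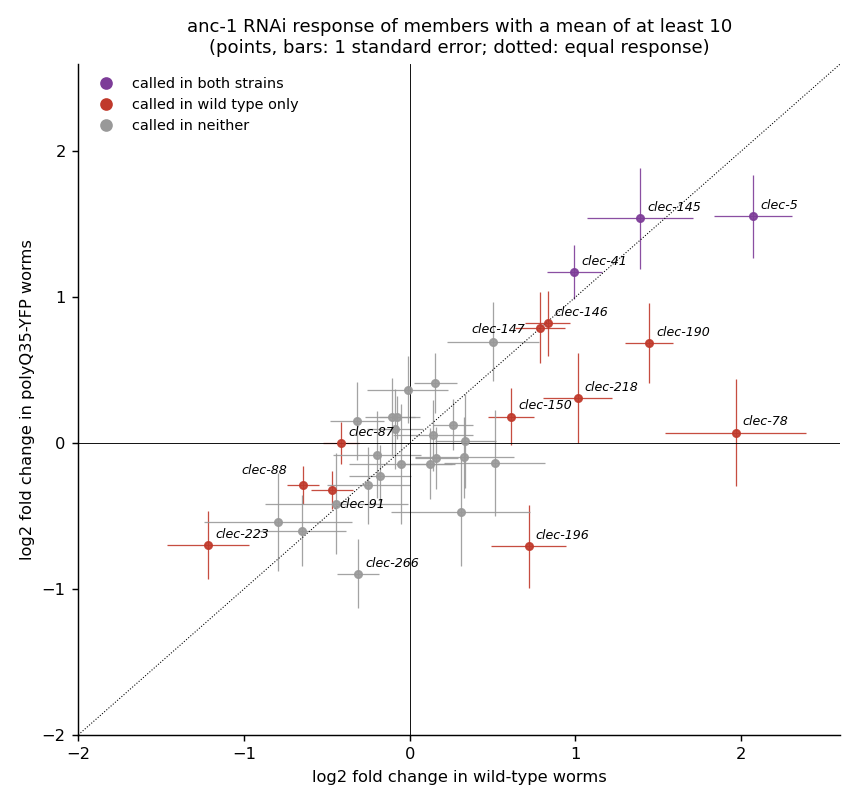
Log2 fold change after knockdown in wild-type worms (x axis) and in polyQ35-YFP worms (y axis) for the 37 members with a mean of at least 10 in both strains, with bars of 1 standard error. *clec-145*, *clec-146*, *clec-147* and *clec-41* sit near the dotted line of equal response, *clec-78* lies far below it near 0 on the y axis, and *clec-196* is the called gene with opposite signs.

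Members lying next to each other were not always called together. Counting members whose starts were within 10 kb, 33 of the 68 fell into 14 groups. *clec-145* and *clec-146* lie 26 bases apart on the same strand of chromosome II and both rose in wild-type worms, by 1.39 and 0.83 on the log2 scale. *clec-225* and *clec-41* lie 106 bases apart on the same strand of chromosome V, where *clec-41* rose and *clec-225* read 12.6, 12.7 and 10.7 under EV against 21.6, 7.10 and 21.7 in wild-type worms (0.31 ± 0.42, limma adjusted p = 0.69). *clec-222* and *clec-223* lie 678 bases apart on the same strand of chromosome V. *clec-223* fell, while the wild-type log2 fold change of *clec-222* was -0.32 ± 0.16 (adjusted p = 0.22) and that in polyQ35-YFP worms was 0.15 ± 0.26 (0.85). *clec-6*, which follows *clec-5* on chromosome III, read 1.15, 2.42 and 0 under EV and 3.41, 3.55 and 3.83 after knockdown in wild-type worms, too few for a call (1.24 ± 0.69, adjusted p = 0.26), and was listed in the wild-type table only. None of *clec-62*, *clec-63*, *clec-65* and *clec-66* on chromosome II was called in either strain.

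Of 16 members with a reported link to infection, a list chosen with earlier results of these data known, 10 were listed in each strain. In wild-type worms *clec-41* and *clec-86* rose (20.0% of the 10, where 17.5% of the family and 7.5% of all genes rose), and in polyQ35-YFP worms *clec-41* rose (1 of the 10, where 4.76% of the family and 0.772% of all genes rose). The median over the listed genes was -0.06 on the log2 scale in the wild type and 0.11 in the polyQ35-YFP strain. *clec-60* read 0 to 6.67 in wild-type samples and 0 to 10.5 in polyQ35-YFP samples. *clec-67* read 2.55 to 8.55 and 2.86 to 13.2, and *clec-66* 0.888 to 10.2 and 3.76 to 22.03. These 3 genes had few reads, and their intervals are wide.

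The better measured members of that list gave tighter estimates. *clec-85* read 280, 252 and 333 under EV and 372, 257 and 315 after knockdown in wild-type worms, and its log2 fold change was 0.12 ± 0.15 there (95% interval -0.20 to 0.44) and -0.14 ± 0.24 in polyQ35-YFP worms (-0.66 to 0.38). *clec-63* had -0.18 ± 0.19 and -0.23 ± 0.22, and *clec-65* had -0.10 ± 0.16 and 0.18 ± 0.27. *clec-186* had 0.14 ± 0.24 and 0.05 ± 0.24, and *clec-49* had -0.25 ± 0.25 and -0.29 ± 0.26. In polyQ35-YFP worms EV replicate 1 was the highest EV sample for 9 of the 10 genes of the list, *clec-60* being the exception, as it was for 33 of the 63 members listed in that strain, and for *clec-85* it read 707 against 389, 271 and 324 in the other EV replicates. The genes *clec-4*, *clec-17*, *clec-39*, *clec-61*, *clec-70* and *clec-71* of the list were not analysed here.

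Grouped by the annotated term, 2 of the 16 listed members with innate immune response rose in wild-type worms (*clec-41* and *clec-86*) against 9 of the 47 without it, or 12.5% and 19.1% where 7.5% of all genes rose, with medians of 0.15 and 0.16. In polyQ35-YFP worms 1 of 16 and 2 of 47 rose, or 6.25% and 4.26% where 0.772% of all genes rose. Of the 5 members with the Gram-positive defense term, *clec-78* and *clec-218* rose in wild-type worms, or 40.0% against 15.5% of the 58 without it, where 7.5% of all genes rose. The share rests on 5 genes, among them *clec-60* with a wild-type mean of 2.73. The grouping by term was added after the values were seen, so its shares are a description. In polyQ35-YFP worms 0 of the 4 listed members with that term rose, against 3 of the 59 without it (5.08%). None of the 6 receptor-annotated members listed in a strain was called. Among these, *clec-48* read 74.6, 68.5 and 67.4 under EV and 31.8, 38.2 and 71.5 after knockdown in wild-type worms, so 2 of 3 treated samples were low (log2 fold change -0.65 ± 0.26, limma adjusted p = 0.12, and 0.013 without knockdown replicate 3). In polyQ35-YFP worms it read 59.1, 56.4, 64.2 and 49.5 against 36.7, 55.9, 29.0 and 32.4 (-0.60 ± 0.24, adjusted p = 0.25).

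A list of 16 regulators of immune gene expression was measured in the same samples. It was chosen with earlier results of these data known, so its shares are a description. All 16 were listed in both strains, with median log2 fold changes of 0.24 and 0.14. In wild-type worms 5 rose (31.3%, where 7.5% of all genes rose) and none fell (6.13% of all genes fell). They were *tir-1*, the adaptor at the head of the p38 MAP kinase cascade (0.42 ± 0.11, limma adjusted p = 0.016), *vhp-1*, a MAP kinase phosphatase (0.62 ± 0.11, 0.0011), *zip-2*, a bZIP transcription factor of the infection response (0.77 ± 0.10, 6.2e-05), *sma-3*, a SMAD of the DBL-1 pathway (1.07 ± 0.31, 0.026), and *pqm-1*, a zinc finger transcription factor (0.59 ± 0.15, 0.013). The p38 MAP kinase *pmk-1* read 584 ± 37.4 under EV and 476 ± 61.2 after knockdown (SD, n = 3; -0.30 ± 0.12, adjusted p = 0.12), and its downstream factor *atf-7* had -0.13 ± 0.10 (0.42). In polyQ35-YFP worms none was called by limma, whereas with the replicate block *zip-2* was higher (0.39, adjusted p = 0.034; 3.83% of all genes were) and *pmk-1* (-0.57, 0.020) and *nsy-1*, an upstream kinase of *pmk-1* (-0.54, 0.020), were lower (4.3% of all genes were). These are changes of transcript level and do not measure the activity of the kinases.

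Markers of several tissues changed in the same samples, in which 7.5% of all genes rose in the wild type and 0.772% in the polyQ35-YFP strain, or 3.83% there with the replicate block. Of 10 intestinal markers, *act-5*, *ifb-2* and *cpr-6* rose in wild-type worms and *act-5* rose in polyQ35-YFP worms. Without a call, *ges-1*, *elt-2* and *elt-7* had positive log2 fold changes in both strains. Also uncalled, *vha-6* (-0.32 in wild-type worms), *pept-1* (-0.43), *asp-1* (-0.18) and *mtl-2* (-0.23) had negative ones in both strains. The summed count of the 10 markers was 7792 to 7926 under EV and 8323 to 10558 after knockdown in wild-type worms. In polyQ35-YFP worms it was 6458 to 9034 and 7394 to 9874. The *cpr-6* mean alone was 2705 under EV and 4127 after knockdown in wild-type worms. Body-wall muscle markers rose for 5 of 8 genes in wild-type worms (sums of 5996 to 6455 and 7673 to 9495) and for 4 of 8 in polyQ35-YFP worms, or 6 of 8 with the replicate block (36565 to 48184 and 59568 to 83629). Most of the polyQ35-YFP sum was *unc-54*, the myosin gene whose promoter drives the transgene, at 33918 to 44966 under EV. It read 3179 to 3326 under EV in the wild type, which was normalized separately. *unc-54* is among the markers called in polyQ35-YFP worms with and without the block, and whether transgene reads add to its count was not tested. Without *unc-54* the muscle sums were 2797 to 3163 and 3833 to 4906 in wild-type worms and 2646 to 3218 and 4110 to 4878 in polyQ35-YFP worms. Of 10 germline markers *glh-1*, a germ granule helicase, rose in wild-type worms (0.64) and none in polyQ35-YFP worms, where the block called *glh-1* (0.64, limma adjusted p = 0.021), with sums of 14522 to 16402 and 12386 to 15839 in wild-type worms and of 13233 to 25933 and 16019 to 24494 in polyQ35-YFP worms. Of 6 listed epidermal markers the cuticle collagens *dpy-7* (0.81) and *sqt-3* (0.68) rose in the wild type and *col-19* fell (-0.53, limma adjusted p = 0.046). Of 4 listed pharyngeal markers the troponin gene *tni-4* fell there (-0.58, limma adjusted p = 0.0038), and of 7 neuronal ones *unc-119* (-0.54, 0.0081). In the wild type 6.13% of all genes fell, and the median log2 fold changes of these 3 lists were positive, at 0.74, 0.50 and 0.09. None of these 3 tissues had a called marker in polyQ35-YFP worms. There the block called *col-93* (1 of 7 listed), *tni-4* (1 of 4) and *unc-119* (1 of 8) lower, where 4.3% of all genes were lower. No intestinal, muscle or germline marker had a group mean of 0. The part of these markers' changes in the lectin values was not tested.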

How the data were processed

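The authors sequenced RNA of whole worms by CEL-Seq2. They trimmed reads with cutadapt 1.12, aligned them to WBcel235 with TopHat2 2.1.1 and counted reads on protein-coding genes with HTSeq 0.6.1 without molecular identifiers, so PCR copies count separately. The deposited signal values are these reads divided by a DESeq2 1.22.2 size factor, one set per strain, for genes with a mean count of at least 2. All values were whole reads within 0.01 once the value of 1 read was recovered. The deposited means, fold changes, standard errors, Wald statistics and p-values of the authors' own comparison were not used.

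Members were taken by their names, without use of their values. Members and gene lists were both set with earlier results of these data known, and the grouping by annotated term was added after the values were seen. limma 3.58.1 (R 4.3.3) was fitted per strain on log2(value + 1) with a variance trend and no block, and the strain difference as an interaction over the shared genes. Levels were not tested between strains, which were normalized separately. Alternatives were pseudocounts of 0.5 and 4, a mean of at least 10, library-total scaling, no variance trend, the recovered reads in DESeq2 1.42.0 and in edgeR 4.0.16, a replicate block, and each sample left out. The fits were tested on simulated counts. Named were *anc-1*, called members, the 5 most abundant per strain, members the study names, members with an unadjusted p below 0.05 and one sign in both strains, neighbours within 10 kb of a called member, and 16 members linked to infection. *clec-178*, *clec-62* and *clec-50* were named after their values were seen.

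The series states that a repeat held both conditions, so the replicate number was used as a block. Samples sharing a number deviated from their group means with correlations of 0.0491, 0.0806 and 0.0740 in wild-type worms (9430 genes) and of 0.215, 0.0949, 0.122 and 0.570 in polyQ35-YFP worms (9566 genes). Pairs with unequal numbers reached 0.0353 (lowest -0.108) and 0.271 (lowest -0.469), the latter for EV replicate 1 with knockdown replicate 2, above 3 of the 4 same-number values of that strain. Repeats are separate worm cultures as the study describes them. Positions come from the deposited tables; exon counts and overlaps come from the Ensembl annotation of WBcel235, in which 4 of the 68 members have the same start and end. Overlaps on the opposite strand were found for 17 members and on the same strand for 3. Protein and promoter sequences were not analysed here.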

Additional observations from a re-analysis of the deposited data

How the results depend on the processing

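Counts of called C-type lectin genes (rising/falling) were 11/4 for wild type and 3/0 for polyQ35-YFP, and those of all genes 905/739 and 94/179. Without the variance trend limma called 4 and 0 members in wild-type worms (*clec-5*, *clec-78*, *clec-145* and *clec-190*), 0 rising in polyQ35-YFP worms, and 329 and 155 of all wild-type genes and 1 and 6 of all polyQ35-YFP genes. In polyQ35-YFP worms the replicate block gave 6 and 3 members (466 and 524 of all genes), and omission of both samples of repeat 4, chosen after seeing the data, 6 and 2 (325 and 463) and 1 member with a strain difference. Library-total scaling gave 32 and 94 of all polyQ35-YFP genes, and DESeq2 203 and 398, with 1 falling member. With single samples left out, members numbered 9 to 11 and 2 to 4 in wild-type worms (all genes 633 to 845 and 349 to 693), 1 to 4 and 0 to 2 in polyQ35-YFP worms (19 to 305 and 41 to 535), and 0 to 1 for the strain difference. The causes were not tested. Of 905 comparisons of a named value with an alternative, 221 kept a call, 40 lost it, 19 gained one, 620 had none in either, and 5 with DESeq2 had no adjusted p; 29 changed sign, all of uncalled values of at most 0.36 in size. Members under a mean of 10 had wide standard errors, and the lack of a call says little about them.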
